A study of Schmidtea mediterranea with 2 samples.

Results

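Margin beads were compared with dense tissue beads on a planarian Slide-seqV2 puck. For each of the 83348 barcode positions, the share of its 50 nearest other positions that held at least 10 UMIs in the original table of the first run was computed. A position with a share of at least 0.10 and under 0.25 was called margin, and a position with a share of at least 0.25 was called dense. Only beads that held 50 UMIs or more after Syrah processing of both runs were then compared. These were 2723 margin beads and 5923 dense beads of 8789 beads in all, and the remaining 143 beads had a share under 0.10.

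The tissue was labelled worm fragments of Schmidtea mediterranea, a free-living flatworm, which had been embedded in OCT medium, fresh frozen and sectioned onto the puck. Slide-seqV2 uses a layer of beads with known positions, each of which captures polyadenylated RNA from the tissue above it, so a bead samples a small region that can hold several cells. No genotype, treatment, age or strain was given, and both groups lay on the same puck. Its 1 library was sequenced in 2 runs, so the beads were not replicates, no p-value was computed, and all 95% intervals below cover counting error only.

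Planarians have no body cavity, and the space between their body wall and organs is filled with parenchyma. The stem cells, or neoblasts, lie in this parenchyma and express piwi-1, a gene of the PIWI family. The gut is a blind, branched tube that runs through most of the body, and mat2a marks its cells. Lists of marker genes for both were therefore followed, 14 intestine genes including mat2a and 21 stem cell genes including piwi-1. The study compared genes of piwi-1 and mat2a beads with known markers from a single-cell atlas, and its marker table calls the members differentially expressed without naming the data, so whether the lists are independent of this puck is not known. The files do not pair the other identifiers with gene names or roles, so those genes are given by their SMED30 identifiers.

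The label was set against the positions of the beads, although distances to dense positions rest on the same shares as the rule and are partly fixed by it. The puck held many separate dense areas, each with margin beads along its rim, and margin beads were also scattered through sparse tissue between them. The median distance from a margin bead to the nearest dense position was 19.8 coordinate units, the 90th percentile was 69.3 units and the highest was 816 units. Of the margin beads, 2398 (88.1%) lay under 60 units from a dense position, which is close to the median radius of the 50 neighbours, 60.6 units. The other 325 (11.9%) lay farther away. The median distance to a position with a share under 0.10 was 58.2 units for margin beads and 122 units for dense beads.

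**Figure D1:**
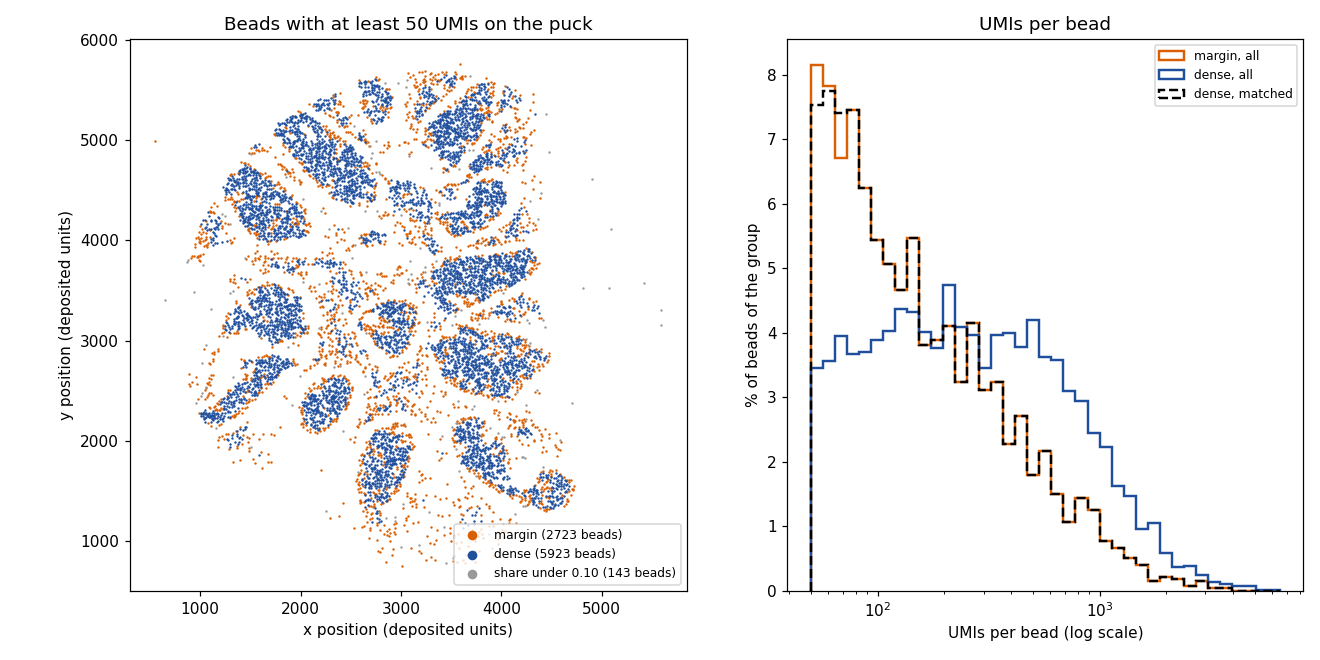
Left, x and y positions in deposited units of the beads with at least 50 UMIs, with margin beads in orange, dense beads in blue and beads with a share under 0.10 in grey. Right, UMIs per bead on a log scale against the percentage of each group's beads, for all margin beads, all dense beads and the dense beads matched to the margin beads. Margin beads line the dense areas and fill sparse tissue between them, and the matched dense beads follow the margin beads' distribution of UMIs.

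Margin beads were the shallower group, which is close to what selected them, since the limits were set on the UMIs of their neighbours. They held a median of 130 UMIs (90th percentile 552.8), against 241 UMIs in dense beads (90th percentile 960.8). Of 29100 margin positions 9.36% held at least 50 UMIs, against 28.8% of 20546 dense positions and 0.424% of 33702 positions with a share under 0.10. The median share of neighbours with at least 10 UMIs was 0.2 around margin beads and 0.34 around dense beads. These beads held 56.5% more UMIs in the margin group and 53.0% more in the dense group with Syrah processing than in the original table of both runs. Over the whole tables the gain was 25.9%. The beads were selected for at least 50 UMIs after Syrah processing, which can raise their gain, and its part in the gap was not tested. Within the selected beads, the second run raised the UMIs of the Syrah-processed tables by 7.96% on margin beads and 7.76% on dense beads. A virtually duplicated neighbour, a barcode 1 substitution away and under 10 units apart, was listed for 24.5% of margin beads and 23.6% of dense beads.

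To compare genes at equal depth, each margin bead was paired with a dense bead of the closest total. All 2723 margin beads found a partner. The matched groups held 664753 UMIs on margin beads and 664785 on dense beads, the totals were identical in 2397 pairs (88.0%), and the widest difference was 25 UMIs. In the following, a ratio is the gene's share of all UMIs on margin beads over its share on matched dense beads. Levels are given as UMIs per 10000 UMIs, and they compare the same gene between groups, since the tables give no gene lengths. Fewer cells of a type and less RNA per cell cannot be told apart on such beads.

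Genes of the intestine were lower on margin beads. The 14 genes summed to 9847 UMIs, or 148 per 10000, on margin beads and to 12097 UMIs, or 182 per 10000, on matched dense beads, a ratio of 0.814 (95% interval 0.793 to 0.836). The ratio was below 1 for 14 of 14 genes, from 0.649 to 0.943, with a median of 0.827. For 8 of them the whole interval lay below 1, and for 0 above. Over all 1314 genes with at least 100 UMIs, of which 13 were intestine genes with a median ratio of 0.828, the median was 0.973 and 714 genes (54.3%) were below 1. Intervals were not counted over all 1314 genes, so the 8 have no such share beside them. An interval below 1 also occurred outside the list, as for the gene ranked 6th by UMIs (0.820, 0.797 to 0.843). The shift of the list was shallow, and 0 of the 13 passed a fold of 1.5 in either direction. Of all 1314 genes, 72 (5.48%) were at least 1.5-fold higher on margin beads and 47 (3.58%) at least 1.5-fold lower.

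SMED30018252, which carried the most UMIs of the intestine list, had 4526 UMIs on margin beads and 5603 on matched dense beads, a ratio of 0.808 (0.777 to 0.840). SMED30035609 had 1253 UMIs on margin beads and 1649 on dense beads (ratio 0.760, 0.706 to 0.818). SMED30020296 was closer to equal, with 1245 UMIs on margin beads and 1422 on dense beads (0.876, 0.811 to 0.945). These abundant members were all lower beyond their counting error. mat2a itself had 181 UMIs on 151 margin beads and 232 UMIs on 188 matched dense beads, which is 2.72 and 3.49 UMIs per 10000 and a ratio of 0.780 (0.639 to 0.952). The member nearest to 1 was SMED30005670, with 279 UMIs on margin beads and 296 on dense beads (0.943, 0.798 to 1.11). The lowest ratio was that of the scarcest member, SMED30000258, with 24 UMIs on margin beads and 37 on dense beads (0.649, 0.371 to 1.11). The intervals of both reached past 1, so neither differed beyond counting error.

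The stem cell genes were close to equal when summed, with members on both sides. Their 21 genes summed to 40747 UMIs, or 613 per 10000, on margin beads and to 41223 UMIs, or 620 per 10000, on matched dense beads, a ratio of 0.989 (0.975 to 1.002). Of the 21 genes, 11 lay below 1, with a median of 0.990 and a range from 0.839 to 1.59. The interval lay below 1 for 4 genes and above 1 for 4 others, again without a count of intervals over all genes beside it. piwi-1 had 393 UMIs on 270 margin beads and 350 UMIs on 243 matched dense beads, which is 5.91 and 5.26 UMIs per 10000, and its ratio of 1.12 had an interval of 0.970 to 1.30. The interval thus spans levels from slightly lower to 1.30-fold higher on margin beads.

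Among the 4 stem cell genes whose interval lay above 1 was the list's most abundant, SMED30029763, with 10894 UMIs on margin beads and 10260 on dense beads (1.06, 1.03 to 1.09). Its richest bead held 267 UMIs in the margin group and 202 in the dense group, and without those beads the ratio stayed at 1.06. SMED30025522 had 933 UMIs on margin beads and 830 on dense beads (1.12, 1.02 to 1.24). SMED30011041 had 503 UMIs on margin beads and 428 on dense beads (1.18, 1.03 to 1.34). The highest of the list, SMED30031463, had 97 UMIs on 77 margin beads and 61 UMIs on 53 dense beads (1.59, 1.14 to 2.23). It was the only member past the 1.5-fold limit, 1 of the 19 tested, with 0 in the other direction.

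Another 4 stem cell genes had an interval below 1. SMED30029899 had 2219 UMIs on margin beads and 2644 on dense beads (0.839, 0.793 to 0.888). SMED30003176 had 1197 UMIs on margin beads and 1376 on dense beads (0.870, 0.804 to 0.941). SMED30005231 and SMED30035193 were nearer to 1, at 0.922 and 0.950. Because SMED30029763 carries a large part of the sum, the list was also summed without it. The ratio was then 0.964 (0.949 to 0.980), lower on margin beads beyond counting error, so the near equality of the full sum rested on this gene. Without the bead richest in the list it was 0.985 (0.972 to 0.999). SMED30016196, which stood in both marker lists and was kept out of both sums, had 13471 UMIs on margin beads and 14816 on dense beads (0.909, 0.888 to 0.931). It was found on 2286 margin beads and 2384 matched dense beads.

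**Figure D2:**
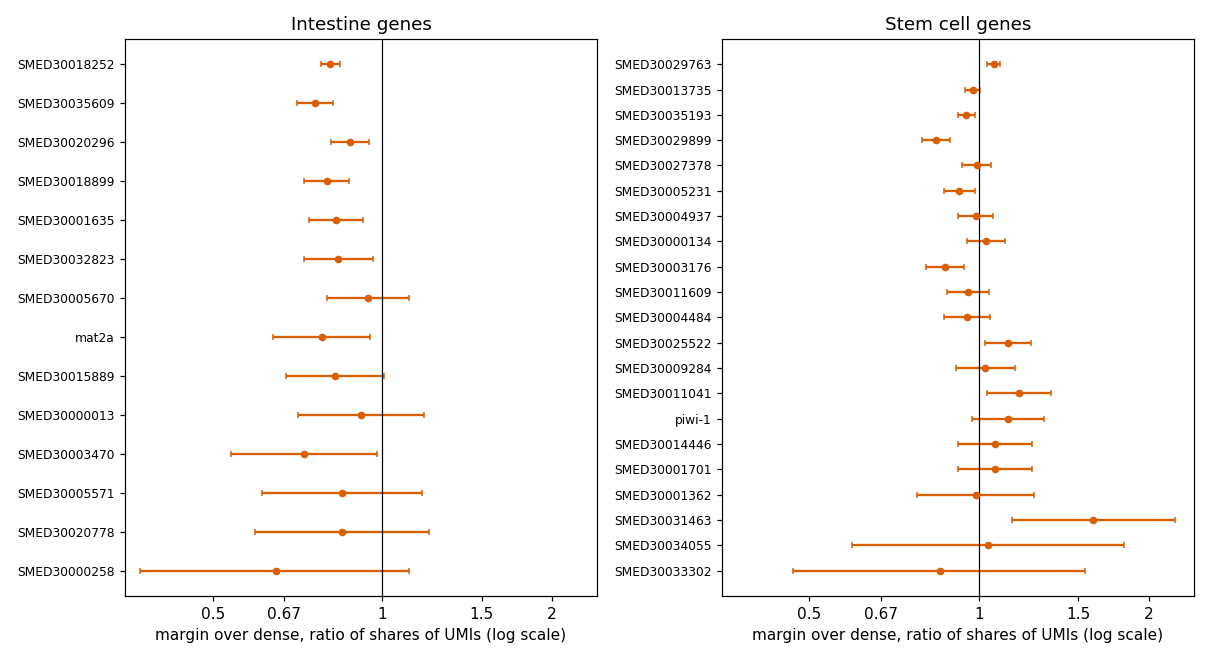
Ratio of each gene's share of UMIs on margin beads over that on matched dense beads, on a log scale, for the 14 intestine genes and the 21 stem cell genes, with the most abundant gene at the top. Points are ratios and bars are exact 95% intervals for counting error. All 14 intestine genes lie left of 1, whereas 11 of 21 stem cell genes do.

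The difference in the intestine list was seen at every depth. On beads with 50 to under 100 UMIs the list was at 128 per 10000 on 1076 margin beads and 164 per 10000 on 1211 dense beads, a ratio of 0.782. In the next classes, which start at 100, 200, 400 and 800 UMIs, the ratios were 0.823, 0.853, 0.876 and 0.826, and all 5 intervals lay below 1. The stem cell list had ratios of 1.01, 0.981, 1.03, 0.970 and 0.992 over the same 5 classes.

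Thinning every bead to 50 UMIs gave the spread of the intestine list over beads. Margin beads had 0.710 ± 1.01 intestine UMIs and dense beads 0.883 ± 1.16 (SD over beads, which are not replicates). At least 1 intestine UMI was found on 44.9% of margin beads (43.0% to 46.8%) and on 50.2% of dense beads (48.9% to 51.5%), and at least 3 on 5.55% of margin beads and 9.49% of dense beads. The richest 10% of beads held 40.7% of the list's UMIs in the margin group and 39.8% in the dense group. The groups thus differed both in beads with any intestine UMI and in beads with several, at a like concentration on the richest beads. For the stem cell list the means were 2.96 ± 1.96 UMIs on margin beads and 2.98 ± 2.01 on dense beads, and at least 1 UMI was found on 92.4% of margin beads and 92.6% of dense beads.

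The defining markers are scarce, and most beads had no UMI of either. After thinning to 50 UMIs, piwi-1 was found on 2.94% of margin beads (2.34% to 3.64%), 2.33% of dense beads (1.96% to 2.75%) and 1.40% of beads with a share under 0.10 (0.170% to 4.96%). mat2a was found on 1.29% of margin beads (0.897% to 1.78%), 1.72% of dense beads (1.41% to 2.09%) and 0.699% of beads with a share under 0.10. Without thinning, piwi-1 was on 9.92% of margin beads and 8.92% of matched dense beads, and mat2a on 5.55% of margin beads and 6.90% of matched dense beads. Over the full and deeper dense group piwi-1 was on 14.4% and mat2a on 10.9% of beads, so these shares moved with depth. On beads with a share under 0.10, with a median of 83 UMIs, piwi-1 was on 8.39% and mat2a on 2.80%. RNA that has spread across the puck can give such UMIs, and its part in these shares was not tested.

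At matched totals, 249 margin beads (9.14%, 8.09% to 10.3%) and 215 dense beads (7.90%, 6.91% to 8.97%) held piwi-1 without mat2a. mat2a without piwi-1 was held by 130 margin beads (4.77%) and 160 dense beads (5.88%). Both were held by 21 margin beads (0.771%) and 28 dense beads (1.03%).

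The 143 beads with a share under 0.10 were also measured. They were shallower and not matched in depth, and whether they lay off the tissue or on small scraps was not tested. Their intestine list was at 172 per 10000, from 351 UMIs, which is 0.943 (0.846 to 1.05) of the level on the matched dense beads. Their stem cell list was at 541 per 10000, or 0.872 (0.821 to 0.926) of the dense level. The intestine level of margin beads was thus the lowest of the 3 groups, while their stem cell level lay between that of these beads and that of dense beads, next to the dense beads.

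The lists were then followed along the distance from the edge of dense tissue, with every bead thinned to 50 UMIs. From the farthest margin beads inwards, at 120 units or more, 60 to 120, 30 to 60 and under 30 units, the intestine list was at 107, 136, 119 and 153 per 10000. On dense beads it was at 172, 184 and 178 per 10000 at under 30, 30 to 60 and 60 to 120 units from the edge. The 171 dense beads at 120 units or more had 127 per 10000, so the level was not highest in the innermost tissue. Dense levels also differed between the areas compared below, from 101 to 220 per 10000. Which areas held these 171 beads was not examined, so distance and area were not separated. The stem cell list ran at 565, 619, 596 and 589 per 10000 over the margin classes and at 583, 602, 597 and 627 over the dense classes, with no step at the edge. Median UMIs per bead increased along the same classes, from 74 at the farthest margin beads to 376 at the innermost dense beads.

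**Figure D3:**
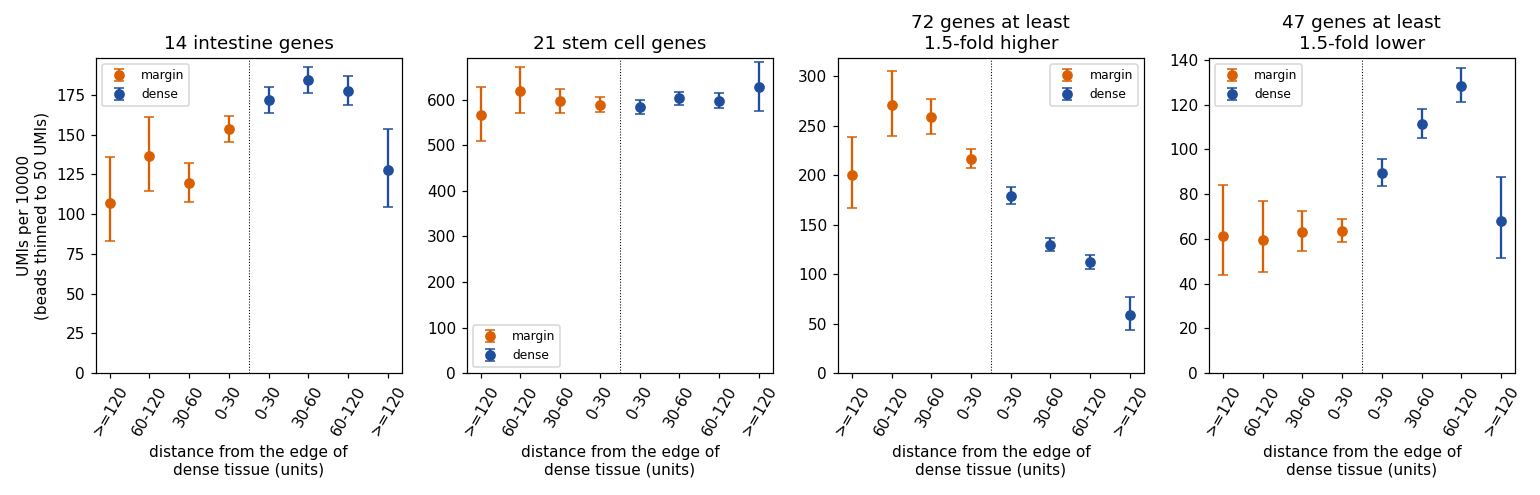
UMIs per 10000 after thinning each bead to 50 UMIs, against distance from the edge of dense tissue in deposited units, for the intestine list, the stem cell list and the genes at least 1.5-fold higher or lower on margin beads. Points are pooled levels with exact 95% Poisson intervals, margin beads lie left of the dotted line and dense beads right of it. The intestine list is at 153 per 10000 in the margin class next to the edge and 172 in the dense class next to it, and the 2 gene sets on the right were chosen on these UMIs.

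No sharp step marked the limits of the rule. Beads with a share of 0.24, just inside the margin group, had 171 intestine UMIs and 604 stem cell UMIs per 10000 (556 beads), and dense beads with a share of 0.26 had 162 and 585 (664 beads). At the outer limit, margin beads with a share of 0.10 had 132 intestine UMIs per 10000 (142 beads), and beads with a share of 0.08 had 137 (70 beads). Between the limits the intestine list was at 124, 123 and 157 per 10000 on margin beads in share classes starting at 0.10, 0.15 and 0.20. Dense beads had 174, 180, 182 and 170 per 10000 in classes starting at 0.25, 0.30, 0.35 and 0.40. Among these margin and dense classes, the lowest levels were thus those of margin beads with a share under 0.20.

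Dense areas were compared with their own rims. Dense positions under 30 units apart were joined, which gave 13 areas with at least 100 dense beads and at least 50 margin beads within 60 units. These held 1418 margin beads and 5156 dense beads. Within each area, margin beads were matched to the area's own dense beads. The intestine list was lower on the rim in 10 of 13 areas, with the interval below 1 in 6 and above 1 in 1. The ratios had a median of 0.911. They ran from 0.293 in the area numbered 11 to 1.26 in the area numbered 3, so the areas did not all behave alike.

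In area 11, 70 margin beads held 141 intestine UMIs, or 48.4 per 10000, and their matched partners among 242 dense beads held 480, or 165 per 10000 (0.293, 0.241 to 0.354). The low value there came from the rim, since over the 13 areas the rims ran from 48.4 to 200.1 per 10000 (median 142) and the dense beads from 101 to 220.2 (median 182). Areas 10 and 12 had ratios of 0.656 and 0.667, and areas 7 and 2 of 0.717 and 0.802. In area 3 the list was at 127 per 10000 on the rim and 101 inside, the lowest dense level of the 13. Areas 1, 6 and 13 lay between 0.966 and 1.01, with intervals across 1.

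Area 11 carried part of the whole-puck difference. Without its beads, the intestine ratio over the puck was 0.874 (0.851 to 0.899). The ratio was still below 1 for 14 of 14 genes, with a median of 0.872 and a range from 0.657 to 0.983, but the interval lay below 1 for 4 genes in place of 8. mat2a then had a ratio of 0.830 (0.677 to 1.02), so its difference no longer exceeded counting error. Pooled over all 13 areas with matching inside each, the intestine ratio was 0.830 (0.803 to 0.857), and without area 11 it was 0.863 (0.835 to 0.892). The stem cell list was lower on the rim in 5 of 13 areas, with the interval below 1 in 2 areas and above 1 in 3, a median ratio of 1.02, a range from 0.862 to 1.16 and a pooled ratio of 1.01. Over quadrants of the puck, the intestine ratio ran from 0.721 to 0.983, and in the quadrant of high x and high y its interval of 0.927 to 1.04 included 1. The stem cell ratio was 0.920 (0.894 to 0.947) in the quadrant of low x and high y and 1.05 (1.02 to 1.08) in that of high x and low y. In 12 of the 13 areas the dense beads had the higher median of UMIs.

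**Figure D4:**
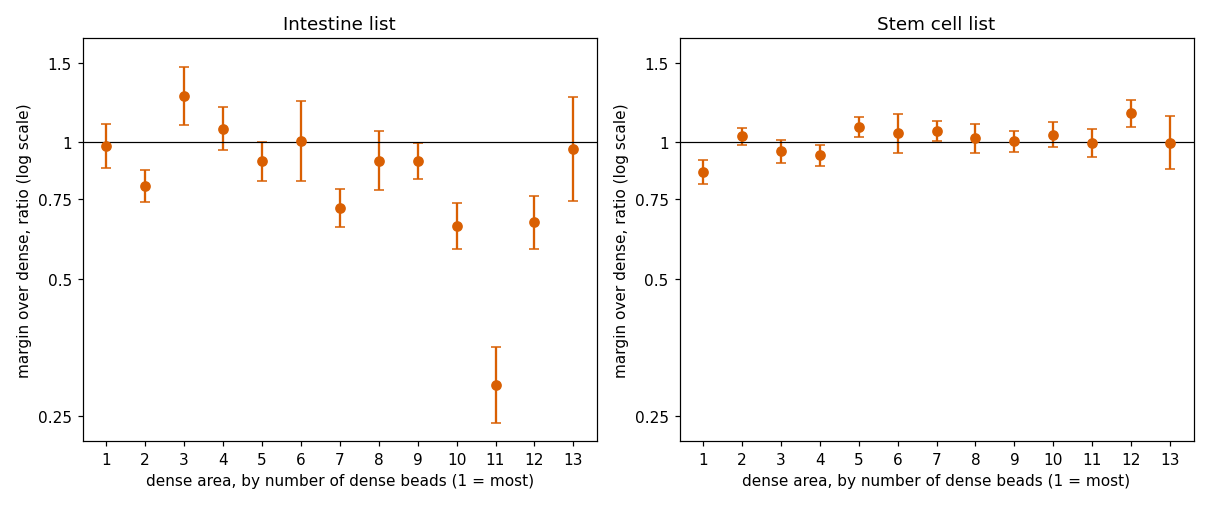
Ratio of the summed share of UMIs of each list on the margin beads around a dense area over that on the area's own matched dense beads, on a log scale, for 13 dense areas ordered by their number of dense beads. Points are ratios with exact 95% intervals for counting error. The intestine list lies between 0.293 and 1.26 and the stem cell list between 0.862 and 1.16.

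Across all genes the groups were close. Of 18457 genes detected in either matched group, 1314 had at least 100 UMIs over both, and these held 81.3% of margin UMIs and 81.7% of dense UMIs. Ratios ran from 0.253 to 4.71, with 5% of genes below 0.696 and 5% above 1.54 and the middle 50% between 0.854 and 1.11. Pearson's r of the log2 levels was 0.968 across these genes, which share beads and depth and are not independent. The 20 most abundant genes took 40.7% of UMIs on margin beads and 40.2% on dense beads, with ratios from 0.743 to 1.22. The most abundant gene alone took 17.1% of UMIs on margin beads and 15.4% on dense beads (1.11, 1.10 to 1.12).

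Genes past the fold were found in every class of abundance. Of 639 genes with 100 to under 200 UMIs over both groups, 36 (5.63%) were higher and 34 (5.32%) lower. The interval of such a gene typically had an upper bound 2.04 times its lower bound. Of 330 genes with 200 to under 400 UMIs, 25 (7.58%) were higher and 8 (2.42%) lower. Of 214 genes with 400 to under 1000 UMIs, 6 (2.80%) were higher and 2 (0.935%) lower. Of 131 genes with 1000 UMIs or more, whose intervals had a typical bound ratio of 1.19, 5 (3.82%) were higher and 3 (2.29%) lower, with ratios between 0.421 and 1.95. A fold past 1.5 is therefore far beyond counting error in the abundant genes and less so in the scarce genes. Counting error does not cover UMIs that sit on 1 bead. Of the 5 higher genes, SMED30018686 had 317 of its 1442 margin UMIs on 1 bead, and SMED30005177 had 275 of 1154. Each fell below the fold when the richest bead of each group was left out. SMED30005838, SMED30028358 and SMED30021196 stayed past it.

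**Figure D5:**
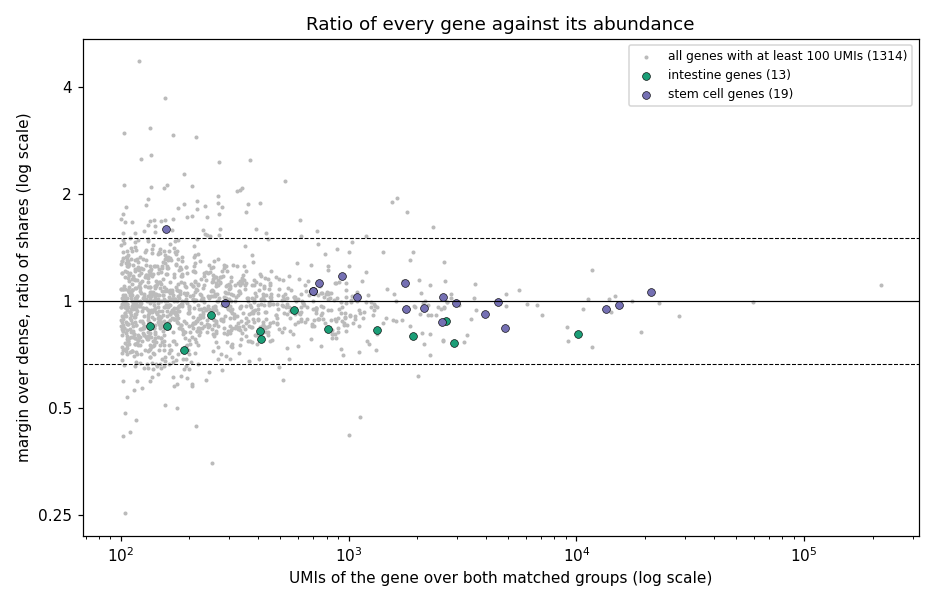
Ratio of each gene's share of UMIs on margin beads over that on matched dense beads, on a log scale, against its UMIs over both groups, on a log scale, for 1314 genes with at least 100 UMIs. Intestine genes (13) are green, stem cell genes (19) are purple, and dashed lines mark a fold of 1.5. The range from lowest to highest ratio is widest among genes with 100 to under 200 UMIs, and all 13 intestine genes lie between 1 and the lower line.

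The 72 genes at least 1.5-fold higher summed to 15246 UMIs, or 229 per 10000, on margin beads and to 8426 UMIs, or 127 per 10000, on matched dense beads. Their median ratio was 1.78, and 20 passed a fold of 2. They were at 212 per 10000 on the beads with a share under 0.10. The 47 lower genes summed to 4275 UMIs, or 64.3 per 10000, on margin beads and to 7592 UMIs, or 114 per 10000, on dense beads, with a median ratio of 0.607 and 9 past a fold of 2. They were at 78.3 per 10000 on beads with a share under 0.10. These sums describe genes picked on the same UMIs and test nothing.

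By distance, the 72 higher genes were at 200 per 10000 (167 to 238) on the farthest margin beads, 271 (239 to 305) at 60 to 120 units, 259 at 30 to 60 units and 216 at under 30 units. The first 2 intervals do not overlap, so the level did not increase steadily outwards. They continued at 179, 130, 112 and 58.5 per 10000 from the edge into dense tissue. The 47 lower genes were level over the margin classes, between 59.6 and 63.6 per 10000, and were at 89.4, 111, 128 and 67.8 per 10000 over the dense classes. The levels of both sets thus also differed between classes within dense tissue. Both sets were picked on UMIs of beads in these classes, and the distances rest on the same shares as the rule, so this tests nothing.

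Both sets were spread over many beads. A median of 3.53% of the margin UMIs of a higher gene lay on its richest margin bead, and 68 of 72 were still past the fold when the richest bead of each group was left out. Of the dense UMIs of a lower gene, a median of 3.80% lay on its richest dense bead, and 45 of 47 were still past the fold without those beads. In the 4 quadrants of the puck, 50 of the 72 higher genes were higher in each and 29 of the 47 lower genes were lower in each. The quadrants are parts of the beads on which these genes were picked, so this agreement is partly fixed and tests nothing. The same count over all genes was not made.

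Among the exceptions were the genes with the highest ratios, whose UMIs sat on few beads. SMED30025454 had 99 UMIs on 22 margin beads and 21 UMIs on 20 dense beads, a ratio of 4.71 (2.92 to 7.95). Of its margin UMIs, 65 (65.7%) were on 1 bead, and without the richest bead of each group the ratio was 1.79. SMED30027307 had 123 UMIs on 31 margin beads and 33 UMIs on 27 dense beads (3.73, 2.52 to 5.65), with 67 (54.5%) on 1 margin bead and a ratio of 1.81 without it. Neither had a UMI on the beads with a share under 0.10, which held only 20446 UMIs in all, too few to judge such scarce genes. Counting intervals do not cover such clumping, and 5 of the 72 higher genes had at least 25% of their margin UMIs on 1 bead.

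The genes with the lowest ratios were not of that kind. SMED30028512 had 21 UMIs on 16 margin beads and 83 UMIs on 47 dense beads, a ratio of 0.253 (0.149 to 0.412) that was 0.221 without the richest beads. SMED30023017 had 65 UMIs on 40 margin beads and 186 UMIs on 93 dense beads (0.349, 0.259 to 0.466), and 0.307 without them. Both were thus found on fewer margin beads than matched dense beads.

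Margin beads held nearly as many genes per UMI as dense beads. Thinned to 50 UMIs, they had a median of 36 genes per bead, against 37 on dense beads, with means of 36.1 genes on margin beads and 37.0 on dense beads. Thinned to 100 UMIs, which 1647 margin beads and 4712 dense beads allowed, the medians were 67 and 68. Without thinning, the median was 80 genes on margin beads, 135 on all dense beads and 80 on matched dense beads. At equal UMIs the medians thus differed by at most 1 gene.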

How the data were processed

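The deposited UMI counts for each gene on each barcode were produced by the authors with the WARP pipeline for Slide-seqV2 (v3.1.2), from original reads and from reads whose barcodes were corrected with Syrah, for 1 run and for both. The methods give alignment to schMedS3, while the deposited count tables name genes by SMED30 identifiers. The 4 deposited tables hold whole-number counts, 3364828 UMIs in the table used here. The unit of the coordinates is not stated. Each margin bead was matched without replacement to a dense bead of the closest total, with seed 11, in python 3.11.15 with numpy 2.4.6, scipy 1.17.1 and matplotlib 3.10.9. Ratios have exact conditional intervals, levels exact Poisson intervals and shares of beads Clopper-Pearson intervals. Named genes were piwi-1, mat2a, the study's marker genes, and the 2 highest and 2 lowest ratios among genes with at least 100 UMIs. In the alternatives, a ratio counted as moved once outside the 95% interval given in the report, and a number of genes once it changed by over 1.5 times. The members and lists were chosen with earlier results of these data known. The dense areas and the settings named as added were chosen after seeing the data. The ratios were tested on simulated pooled counts and the matching on random totals. The simulated counts had no variation between beads, so clumping on beads was not covered. Doublets were not called, since a bead is not a cell.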

Additional observations from a re-analysis of the deposited data

How the results depend on the processing

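The intestine ratio stayed below 1 in all 25 alternatives that gave it, between 0.721 and 0.983, and the stem cell ratio lay between 0.910 and 1.05, below 1 in 15 of 25. The cause of the shifts below was not tested. The intestine ratio of 0.814 moved to 0.886 in the original table with the second run, 0.884 in that of the first run, 0.838 with at least 100 UMIs per bead, 0.745 with shares of 0.10 to under 0.20 against 0.30 or more, 0.907 with 25 and 0.770 with 100 neighbours, and 0.789 with virtually duplicated barcodes joined. Over the quadrants of low x and low y, low x and high y, high x and low y, and high x and high y it was 0.721, 0.944, 0.759 and 0.983, and in the last of these the interval (0.927 to 1.04) included 1, so the difference no longer exceeded counting error. Among settings added after seeing the data, it was 0.790 for margin beads 60 or more units from a dense position, 0.863 within areas without area 11 and 0.874 over the puck without area 11. The stem cell ratio of 0.989 moved to 0.968 without matching, 1.01 in the original table with the second run, 1.003 with the shares farther apart, 1.004 with 100 neighbours, 0.920 and 1.05 in the quadrants of low x and high y and of high x and low y, 1.004 in the largest connected piece, and 0.964 without its most abundant gene, where the interval (0.949 to 0.980) lay below 1. In added settings it was 1.01 under 60 units, 0.910 at 60 or more units, 1.01 without the most abundant gene in the totals, 1.01 within areas and 1.01 within areas without area 11. Over the puck without area 11 it was 0.990.

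The counts of 72 higher (5.48%) and 47 lower (3.58%) of 1314 genes depend on how many genes reach 100 UMIs, which was between 87 and 2926 over the alternatives at that limit. As numbers, both moved without matching, where the split turned to 141 and 181 (4.82% and 6.19% of 2926), when beads were thinned to 50 UMIs (17 and 31, or 3.82% and 6.97% of 445), with duplicates joined (41 and 29, or 6.01% and 4.25% of 682), with at least 50 UMIs per gene (198 and 157, or 7.85% and 6.23%) or 400 (11 and 5, or 3.19% and 1.45%), and at a fold of 2 (20 and 9). The higher genes numbered 46 (4.63%) in the original table of the first run, 33 (6.82%) with the shares farther apart, 46 (2.96%) with 25 neighbours and 39 (5.59%) with neighbourhoods from the Syrah-processed table. The lower genes numbered 74 (5.61%) with 100 neighbours. In the 4 quadrants, in the order above, the counts were 28 and 27, 14 and 12, 28 and 28, and 9 and 12, with shares between 3.01% and 8%. They were 5 and 6 at 60 or more units, and 41 and 24 within areas without area 11. Leaving the most abundant gene out of the totals gave 80 higher and 38 lower. With another seed for the matching, 62 of 70 higher genes and 33 of 52 lower genes were among those reported, the intestine ratio was 0.830 and the stem cell ratio 0.997. In the original table with the second run, 39 of 51 higher genes but only 20 of 44 lower genes were among those reported, so most lower genes differed. Within areas 36 of 55 and 18 of 35 were. No paired analysis was possible because the labels give no replicates to pair across groups. The only pairing was within the puck, of beads by their totals and of areas with their own rims.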

Other observations

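Among the 20 most abundant genes, those ranked 14th and 13th had the highest and the lowest ratio on margin beads. The gene ranked 18th was close to the lowest, at 0.772 (0.741 to 0.805). The gene ranked 14th by UMIs had a ratio of 1.22 on margin beads and was at 2.78 times the dense level on beads with a share under 0.10. The gene ranked 13th had a ratio of 0.743 on margin beads and was at 1.71 times the dense level on beads with a share under 0.10, so it was lowest in the margin. The beads with a share under 0.10 were not matched in depth, and whether single beads carried these levels was not tested. The most abundant gene was at 1739, 1780, 1876 and 1817 UMIs per 10000 from the farthest margin beads to the edge and at 1716, 1576, 1474 and 1535 from the edge inwards. These genes have no name in the files.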
